A study of Mus musculus with 6 samples.

Results

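Dbp, Tef, Hlf, Nfil3, Bhlhe40, Bhlhe41, Wee1, Usp2, Tspan4 and Lonrf3 are output genes of the circadian clock, and their RNA was measured in the gastrocnemius, the large muscle of the calf, of young and aged mice. The 10 genes were listed by name and selected on their processed signal in aged against young mice, which was already known, so that difference is described here and not tested. They are 10 of the 20900 genes that could be tested, and all 13 of their probes were found on the array. The young group was 3 male mice at 13 weeks of age and the aged group was 3 male mice at 26 months of age. The study's methods name the C57BL/6J strain with free access to food and a standard diet, and the labels give no treatment for either group. Each mouse gave 1 single-colour Agilent array of total RNA from the muscle. The time of day at which the muscles were taken is not given in the sources used here.

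The circadian clock is a loop of transcription factors present in nearly every cell, muscle fibres included. CLOCK and BMAL1 (gene Arntl) bind E-boxes and switch on their own inhibitors, the PER and CRY proteins and the REV-ERB receptors (Nr1d1, Nr1d2), so that each rises and falls once a day. Output genes carry the rhythm to the rest of the cell. Dbp, Tef and Hlf encode the PAR bZIP activators, which bind D-boxes. Nfil3 (E4BP4) encodes a bZIP repressor of the same D-boxes, and its own gene is repressed by the REV-ERB receptors. Bhlhe40 (Dec1) and Bhlhe41 (Dec2) encode repressors that bind E-boxes and oppose CLOCK and BMAL1. Wee1 encodes a kinase that holds back entry into mitosis, Usp2 a deubiquitinating enzyme, Tspan4 a membrane protein of the tetraspanin family and Lonrf3 a RING finger protein with a LON domain.

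The promoters show where the clock's E-box, CACGTG, lies next to these genes. RefSeq starts on the GRCm38.p6 build were held for 8 of the 10 genes, with 10 promoters of 300 bases among them (250 before the start and 50 from it). Bhlhe40 and Wee1 were not among them. The E-box was found in 5 of the 10 promoters, belonging to 4 genes, Tef, Bhlhe41, Tspan4 and Lonrf3, and in 7.15% of all 32851 promoters of that length. It reads the same on both strands. Each stretch of 100 bases below is written 5′ to 3′ along its gene, from RefSeq, with the E-box in capitals and as many bases before it as after it. In Tef it lay 127 bases before one start (chr15:81802499-81802598 on the plus strand) and 138 before the other (chr15:81811229-81811328 on the plus strand). In Bhlhe41 it lay 153 bases before the start (chr6:145865521-145865620 on the minus strand), in Tspan4 51 bases before 1 of its starts (chr7:141476282-141476381 on the plus strand), and in Lonrf3 45 bases before the start (chrX:36328317-36328416 on the plus strand).
Tef, first start: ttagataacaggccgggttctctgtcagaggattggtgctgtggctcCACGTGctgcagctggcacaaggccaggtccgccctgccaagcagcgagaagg
Tef, second start: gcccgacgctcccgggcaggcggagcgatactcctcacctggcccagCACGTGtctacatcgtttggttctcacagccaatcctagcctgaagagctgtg
Bhlhe41: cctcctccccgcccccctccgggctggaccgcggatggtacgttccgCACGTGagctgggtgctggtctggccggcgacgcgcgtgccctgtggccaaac
Tspan4: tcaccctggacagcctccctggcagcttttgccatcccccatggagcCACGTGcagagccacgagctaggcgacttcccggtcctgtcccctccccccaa
Lonrf3: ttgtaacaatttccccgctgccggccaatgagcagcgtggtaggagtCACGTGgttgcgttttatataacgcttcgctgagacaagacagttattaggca
Among these genes Tef, Bhlhe41 and Tspan4 had the lower mean in aged mice and Lonrf3 the higher, so genes with this motif lay on both sides.

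The promoter of Nfil3 held the core motif of the REV-ERB receptors, AGGTCA, on the opposite strand, 12 bases before its start (chr13:52980999-52981098 on the minus strand). It is shown because Nfil3 is the D-box repressor of the group and because this motif is the one its known repressors bind. The capitals mark the site as it reads along the gene.
Nfil3: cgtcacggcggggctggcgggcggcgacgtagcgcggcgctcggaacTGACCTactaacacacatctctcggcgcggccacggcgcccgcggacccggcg
This motif was found in no other promoter of the 10 genes and in 16.3% of all promoters. The D-boxes TTATGTAA and TTACGTAA, searched on both strands, were in none of the 10 promoters and in 0.938% and 0.119% of all promoters. The E-box variant CACGTT was in none of them and in 4.68% of all. A match is a description of the letters and not of binding, and a missing match says only that the letters were not in this window.

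The array of aged mouse 1 stood apart from the others: it had the highest 75th percentile of probe intensity (311, against 209.5 to 299.9 on the others), negative-control signal (61.3, against 51.9 to 55.1) and share of probes well above background (53.8%, against 48.7% to 50.7%). Without it, 199 genes in place of 53 differed at an adjusted p under 0.05 (limma), and the median log2 difference of the output genes was -0.81 in place of -0.64. With that mouse left out, all 10 output genes kept their direction.

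Each value below is the background-corrected signal of a probe divided by the 75th percentile of all probes on the same array, so a value of 1 is that percentile itself. Values may be compared between mice for a gene, but not between genes, since probes differ in brightness. Differences are aged minus young means on the log2 scale, with the standard error and 95% interval of a limma fit to all genes. All 10 genes were well above background on all 6 arrays. Of them, 8 had the lower mean in aged mice and 2, Nfil3 and Lonrf3, the higher. Every aged mouse lay below every young mouse for 7 genes and above for 2, against 13.9% and 7.92% of all genes tested. Bhlhe41 passed the adjusted threshold of 0.05 in the lower direction, against 0.254% of all genes in either direction and 0.0574% lower. The genes were listed with this contrast known, and nothing is read from these counts. The median difference over the 10 genes was -0.64, and over all 20900 genes it was -0.06. The RNA came from whole muscle, in which fewer cells of a type and less RNA per cell cannot be told apart.

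**Figure D1:**
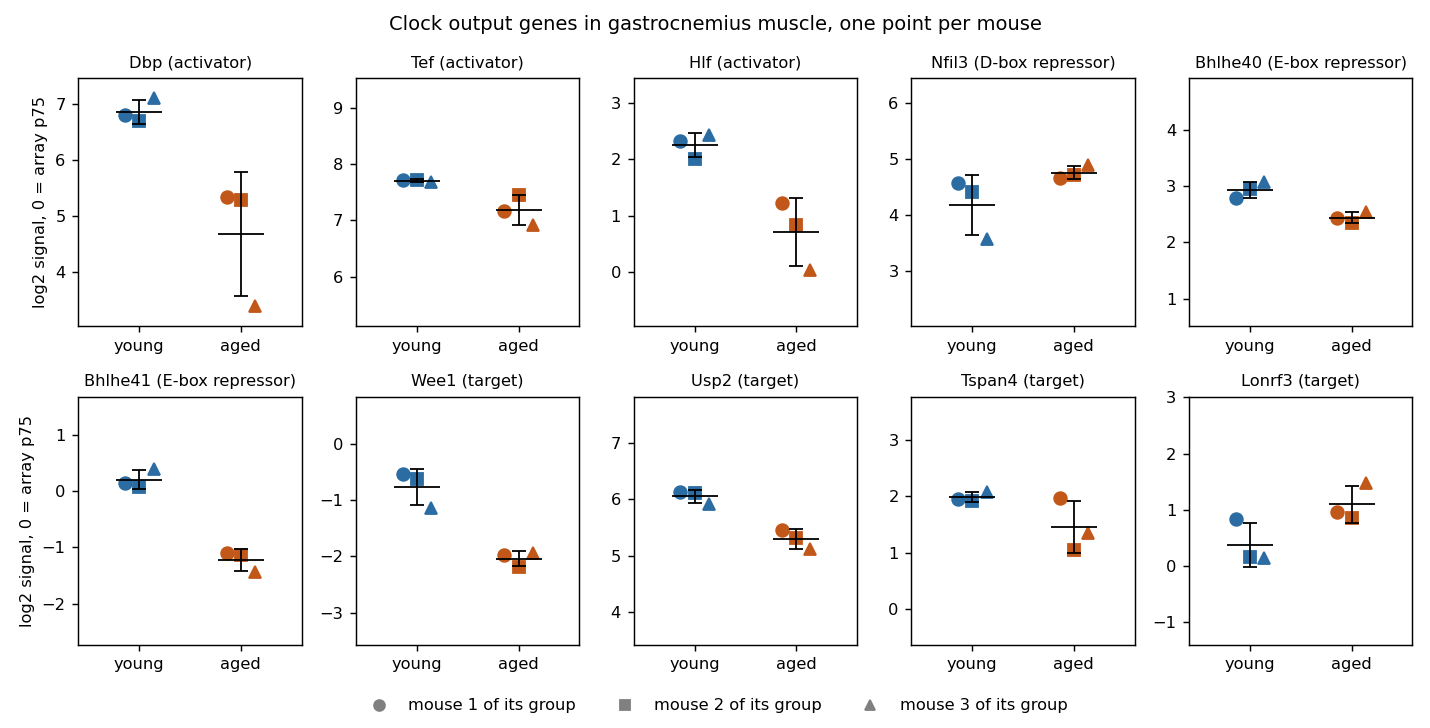
log2 signal of the 10 clock output genes, where 0 is the array's 75th percentile, with 1 point per mouse (3 young in blue, 3 aged in orange), the group mean as a long bar and 1 SD as the error bar. Every panel spans the same number of log2 units. The groups overlap in the panel of Tspan4 and in no other.

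The 3 PAR bZIP activators, which bind the same D-boxes, all had lower means in aged mice, with no overlap between the groups. Dbp, the best known clock output gene, measured 111, 103 and 136 times the 75th percentile in the young group and 40.7, 38.9 and 10.6 in the aged group, with mice 1, 2 and 3 in that order here and below. The young mice lay close together, 2 of the aged mice lay near each other, and aged mouse 3 lay far below both. The mean log2 signal was 6.86 ± 0.21 (SD, n = 3) in young and 4.68 ± 1.11 (SD, n = 3) in aged mice. The difference was -2.18 (SE 0.52, 95% interval -3.41 to -0.95), a level 4.53-fold lower, and without aged mouse 3 it was -1.54. In rank, 0.215% of all genes tested had a lower difference than Dbp.

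Hlf measured 5.0, 4.02 and 5.41 in young mice and 2.35, 1.79 and 1.03 in aged mice. Aged mouse 3 was again the lowest, and the young mice lay closer together than the aged mice. The difference was -1.55 (SE 0.32, 95% interval -2.31 to -0.80). Tef measured 212, 209 and 205 in young mice and 143, 176 and 121 in aged mice. The young mice were nearly equal, with an SD of 0.02 on the log2 scale, and the aged mice spread by 0.27. The difference in Tef was -0.52 (SE 0.18, 95% interval -0.96 to -0.09), and aged mouse 2 lay nearest to the young mice.

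Nfil3, the repressor at the D-boxes that these 3 activators use, lay on the other side. It measured 23.6, 21.3 and 11.9 in young mice and 25.3, 26.2 and 29.6 in aged mice. The aged mice were close together, and the lowest of them was only slightly above the highest young mouse, by 0.10 on the log2 scale. Young mouse 3 was far below the other young mice. The difference was 0.57 (SE 0.28, 95% interval -0.09 to 1.24), which includes 0, and without young mouse 3 it was 0.27.

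The E-box repressors Bhlhe40 and Bhlhe41 both had lower means in aged mice, with no overlap. Bhlhe41 measured 1.11, 1.06 and 1.31 in young mice and 0.468, 0.454 and 0.367 in aged mice. The mice of each group lay close together and the gap between the groups was wide. The difference was -1.43 (SE 0.18, 95% interval -1.86 to -1.01). It was -1.002 when the background was corrected by another method (normexp with an offset), which narrows the differences of dim probes. Bhlhe40 measured 6.94, 7.69 and 8.45 in young mice and 5.37, 5.10 and 5.85 in aged mice. The spread was small in both groups, and the difference was -0.50 (SE 0.16, 95% interval -0.88 to -0.12).

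Among the other output genes, Wee1, the mitotic brake, measured 0.690, 0.650 and 0.454 in young mice and 0.254, 0.218 and 0.261 in aged mice. Young mouse 3 was the lowest of its group and still well above the aged mice. The difference was -1.27 (SE 0.21, 95% interval -1.77 to -0.77), and -0.83 with normexp. Usp2, the deubiquitinating enzyme, measured 70.0, 69.0 and 60.5 in young mice and 44.1, 40.0 and 34.6 in aged mice. All 3 aged mice were below all 3 young mice, and the difference was -0.75 (SE 0.17, 95% interval -1.15 to -0.35).

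Tspan4 and Lonrf3 had the largest standard errors among the targets. Tspan4 measured 3.87, 3.78 and 4.24 in young mice and 3.91, 2.07 and 2.54 in aged mice. Aged mouse 1 lay among the young mice, and the other aged mice lay below them. The difference was -0.53 (SE 0.25, 95% interval -1.13 to 0.07), which includes 0, and without aged mouse 2 it was -0.33. Lonrf3 measured 1.78, 1.12 and 1.1 in young mice and 1.95, 1.81 and 2.78 in aged mice. Aged mouse 3 stood highest, while aged mouse 2 was above young mouse 1 by only 0.03 on the log2 scale. The difference was 0.72 (SE 0.27, 95% interval 0.09 to 1.35).

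**Figure D2:**
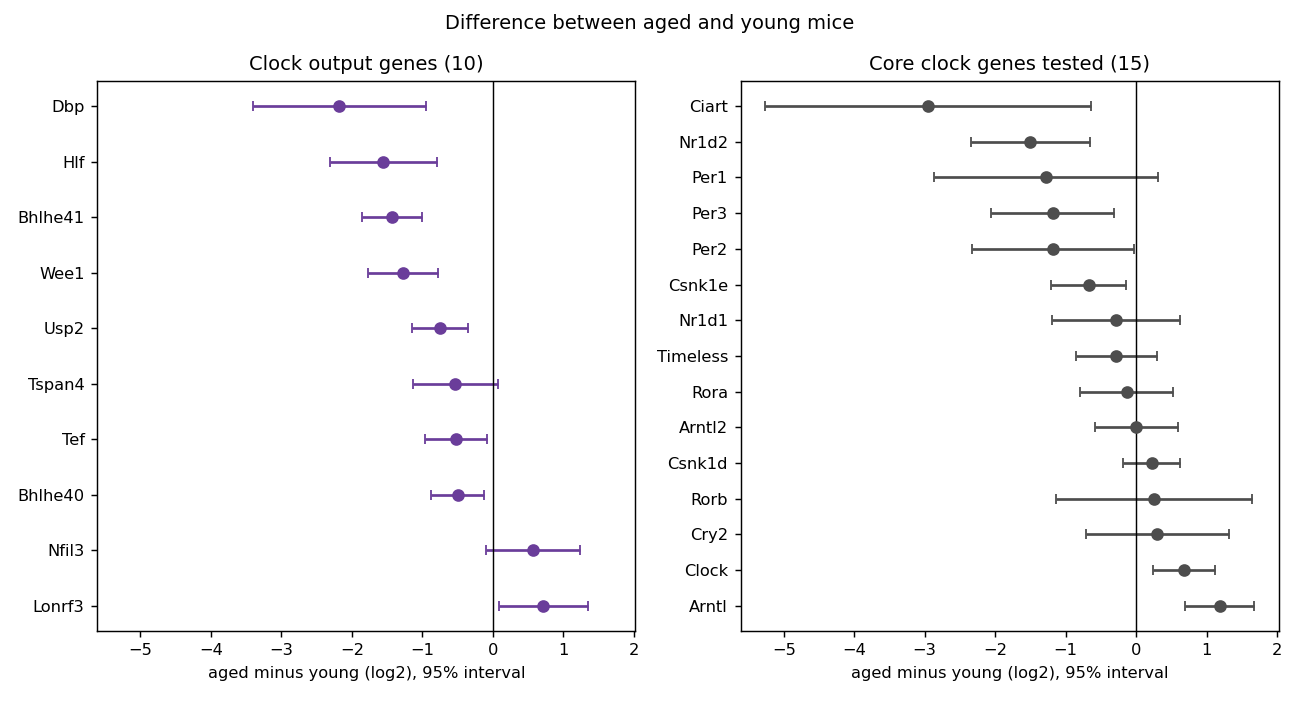
Aged minus young difference in log2 signal with its 95% interval (limma, 3 mice a group) for the 10 clock output genes, left, and the 15 core clock genes that could be tested, right. The interval lies on one side of 0 for 8 output genes, against 14.4% of all genes tested (limma, unadjusted p under 0.05), and nothing is read from this count. It includes 0 for Nfil3 and Tspan4.

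For 3 of the genes the array carried a second probe, which gives a repeat within the same RNA and not a further mouse. The second probe of Dbp gave a difference of -2.35 against -2.18, and aged mouse 3 was the lowest on both. The second probe of Lonrf3 gave 0.60 against 0.72, and aged mouse 3 was the highest on both. The second probe of Bhlhe41 gave -0.68 against -1.43, so the probes of this gene put the aged mice on the same side and differed in size. On that second, dimmer probe the aged mice were still all below the young mice. With the mean of both probes in place of the brighter one, the difference of Bhlhe41 was -1.06.

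**Figure D3:**
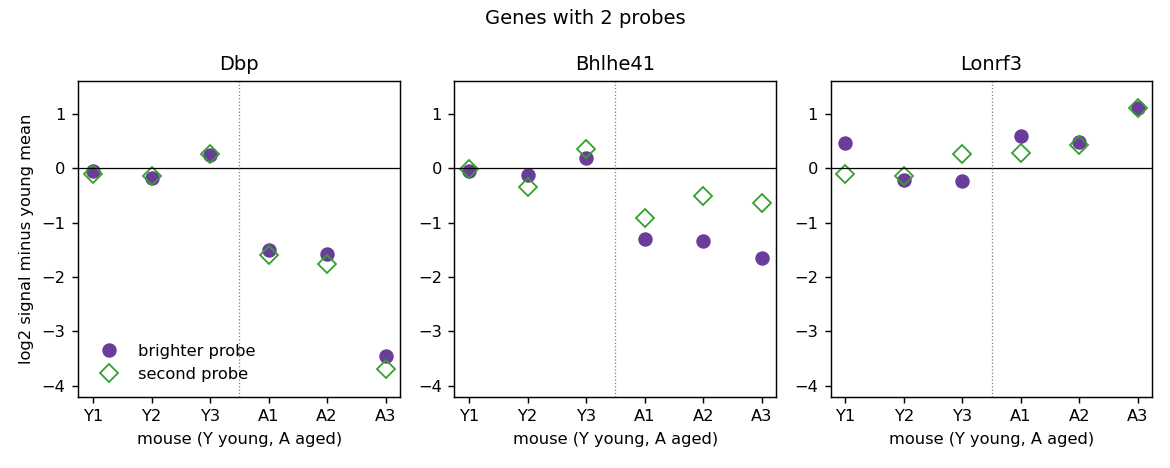
log2 signal minus the mean of the 3 young mice for both probes of Dbp, Bhlhe41 and Lonrf3, with young mice (Y1 to Y3) left and aged mice (A1 to A3) right of the dotted line. For Bhlhe41 the second probe puts the aged mice nearer to the young mean than the brighter probe does.

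Taking each gene by itself, the aged mouse farthest from the young mean was aged mouse 3 for 7 of the 10 genes, aged mouse 2 for the other 3 and aged mouse 1 for none. Over the 6 arrays, the log2 signal of Dbp correlated most with that of Hlf (Pearson r = 0.982), Tef (0.945), Bhlhe41 (0.930) and Usp2 (0.921), and ran opposite to Lonrf3 (-0.879) and Nfil3 (-0.719). These 6 points fall into 2 separate age groups and share the array and its scaling, so the values describe the pattern and have no test. Of 12674 other genes with a symbol that were well above background on all 6 arrays, those most like Dbp were Fli1 (r = 0.993), Cys1 (0.993) and Cbx6 (0.993). Those most like Bhlhe41 were Gucy2d (0.996), Flad1 (0.996) and Mfsd6 (0.995). This likeness is of pattern and not of size. Fli1 differed by -0.69, Cys1 by -1.43 and Cbx6 by -0.66, against -2.18 for Dbp. Gucy2d differed by -0.64, Flad1 by -0.35 and Mfsd6 by -0.63, against -1.43 for Bhlhe41. Of the 12674 genes, 233 had r over 0.95 with Dbp and 219 with Bhlhe41, so values over 0.95 were not particular to the genes named.

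The aged mice did not lie on the slide as the young mice did. Aged mouse 1 was in the row of the 3 young mice, and aged mice 2 and 3 were in the other row. Within the shared row, which leaves aged mouse 1 against the young mice, the difference was -1.51 for Dbp, -1.03 for Hlf, -0.54 for Tef, 0.48 for Nfil3, -1.30 for Bhlhe41 and -0.51 for Bhlhe40. It was -1.21 for Wee1, -0.59 for Usp2, 0.59 for Lonrf3 and -0.02 for Tspan4. All 10 kept their sign, and Tspan4 was near 0. These values rest on a single aged mouse, whose array stood apart from the others as given above. The row and the mice in it cannot be told apart.

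**Figure D4:**
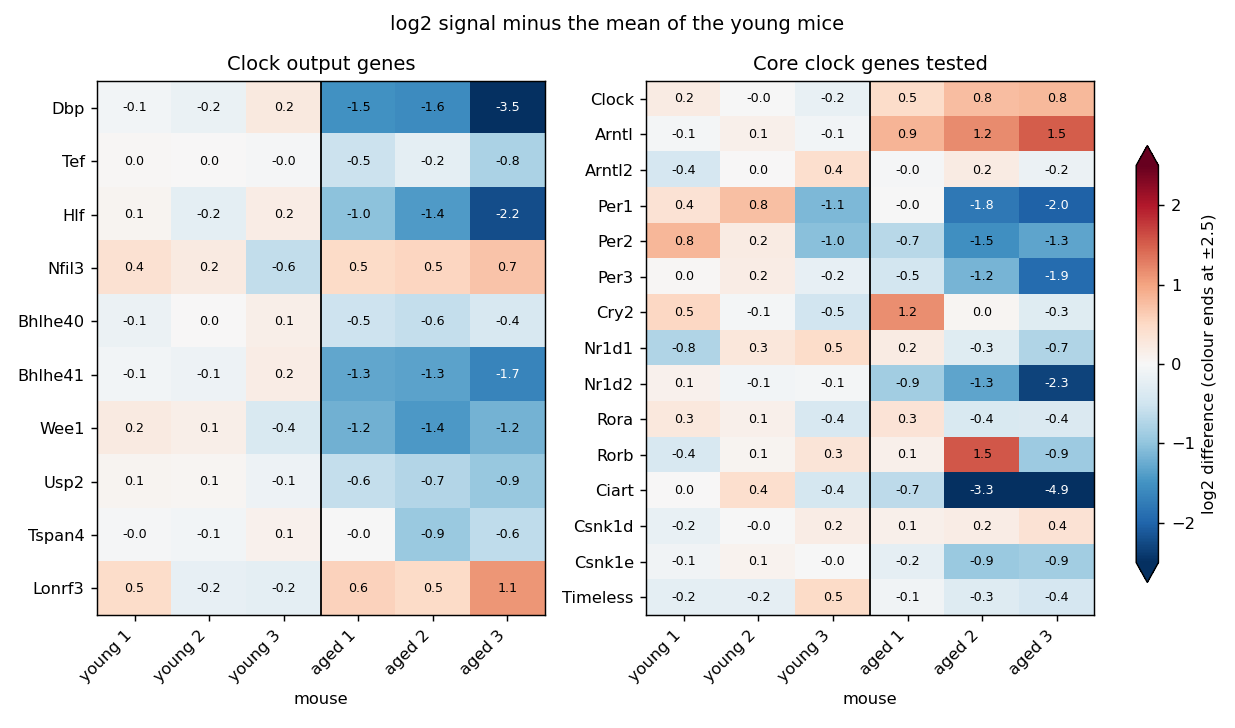
log2 signal of each mouse minus the mean of the 3 young mice (blue lower, red higher) for the clock output genes, left, and the core clock genes tested, right. Dbp and Hlf are lowest in aged mouse 3, as are Nr1d2, Per3 and Ciart, and Arntl is highest there.

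The core clock, which drives these outputs, was followed in 18 genes, of which 15 were bright enough to be tested (Npas2, Cry1 and Fbxl21 were not). None passed the adjusted threshold (limma, Benjamini-Hochberg over all genes), and 7 had an unadjusted p under 0.05, against 14.4% of all genes. The means of 6 genes were higher in aged mice and those of 9 lower, with a median difference of -0.28, and Arntl2, near 0, changed from higher to lower with median scaling. This list, too, was drawn up with earlier results of these data known.

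On the activating arm, Arntl, which encodes the partner of CLOCK, had log2 signals of 2.34, 2.52 and 2.33 in young mice and 3.25, 3.57 and 3.91 in aged mice. The groups were well apart, and the difference was 1.19 (SE 0.21, limma adjusted p = 0.104). For Clock the difference was 0.68 (SE 0.19, limma adjusted p = 0.202), with every aged mouse above every young mouse, and it was 0.30 with normexp. Arntl and Clock were the only core clock genes for which this was so, 2 of the 15 tested, against 7.92% of all genes tested.

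On the repressing arm, all aged mice lay below all young mice for Nr1d2, Per3, Ciart and Csnk1e. These were 4 of the 15 core clock genes tested, against 13.9% of all genes tested. Nothing is read from the counts of either arm. Nr1d2, a REV-ERB receptor, had log2 signals of 3.00, 2.83 and 2.83 in young mice and 2.01, 1.57 and 0.57 in aged mice. Its difference was -1.50 (SE 0.36, limma adjusted p = 0.163), and aged mouse 3 was the lowest, as for Dbp and Hlf. Per3 differed by -1.19 (SE 0.37, limma adjusted p = 0.240), and its probe was well above background on 2 of the 3 aged arrays. With normexp it differed by -0.54. The kinase gene Csnk1e differed by -0.67 (SE 0.22, limma adjusted p = 0.271). Another of its probes gave -0.77 with no overlap, and a dimmer one gave -0.14 with overlap. Ciart, which encodes a repressor of CLOCK and BMAL1, was well above background on all 3 young arrays and on 1 of the 3 aged arrays. Its log2 signals were -1.20, -0.79 and -1.65 in young mice and -1.87, -4.55 and -6.09 in aged mice, so the lower values lie at the background, and its difference of -2.95 was -0.90 with normexp. Without aged mouse 1, Arntl (1.35) and Ciart (-4.11) passed the threshold, with limma adjusted p = 0.0480 and 0.0336, although both aged arrays then left were not well above background for Ciart. Over all alternatives the adjusted p of limma ran from 0.0480 to 0.285 for Arntl and from 0.0336 to 0.682 for Ciart. In the shared row of the slide, aged mouse 1 differed from the young mice by 0.86 for Arntl, -0.87 for Nr1d2, -0.45 for Per3, -0.65 for Ciart and -0.01 for Per1. It was -0.23 for Csnk1e, -0.69 for Per2 and 1.16 for Cry2.

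Other loop genes varied as much within a group as between groups. Per1 had log2 signals of 6.0, 6.40 and 4.51 in young mice and 5.63, 3.85 and 3.61 in aged mice. Young mouse 3 was below aged mouse 1, and the difference was -1.28 (SE 0.67, limma adjusted p = 0.430). Per2 differed by -1.18 (SE 0.48, limma adjusted p = 0.337) and its groups overlapped in the same way. Nr1d1, the other REV-ERB receptor, differed by -0.28 (SE 0.38, limma adjusted p = 0.761). Its lowest young mouse lay below every aged mouse. The remaining core clock genes tested lay between -0.28 for Timeless and 0.30 for Cry2, and all of their intervals included 0. For Csnk1d the probes went opposite ways. The brighter one, used here, gave 0.22 with overlap. A dimmer one, also well above background on all arrays, gave -0.59, with every aged mouse below every young mouse.

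Of 13 other clock-controlled genes, all tested, none passed the threshold (limma), with 5 higher means, 8 lower and a median of -0.12. An unadjusted p under 0.05 (limma) was found for 2, against 14.4% of all genes, and nothing is read from this count. Those 2 were Cys1, which encodes a protein of the primary cilium (-1.43, SE 0.36), and Cdkn1a, a brake on the cell cycle (1.85, SE 0.60). Cys1 is also among the genes most like Dbp above. Of 16 genes that answer to glucocorticoids, hormones that also set peripheral clocks, none passed (limma), with 7 higher, 9 lower and a median of -0.09. Here, too, 2 had an unadjusted p under 0.05 (limma), against the same 14.4% of all genes, and nothing is read from this. Those 2 were Sgk1 (-0.82, SE 0.26), a kinase, and Mt2 (2.56, SE 0.73), a metallothionein. In this list Ddit4 had log2 signals of 6.62, 7.74 and 2.92 in young mice and 7.45, 3.25 and 3.14 in aged mice. Young mouse 3 was thus the lowest of all 6 for Ddit4. Of the output genes it was the lowest young mouse for Tef, Nfil3, Wee1, Usp2 and Lonrf3 and the highest for the others. Of the core clock genes it was the lowest young mouse for some, such as Per1 and Per2, and the highest for others, such as Nr1d1 and Timeless. Its array had the lowest 75th percentile of probe intensity (209.5, against 258.5 to 310.7 on the others). The part of this in the results was not tested. Of 9 relatives of the output genes (such as Wee2, Lonrf1 and Cebpb), 7 were tested, and none passed the threshold (limma) or had an unadjusted p under 0.05.

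All 10 muscle fibre markers were well above background on all arrays, and their signals summed to between 7073 and 8771 times the 75th percentile in the young group and between 5922 and 7675 in the aged group. All 10 had a lower mean in aged mice, none past the threshold (limma, 0 at an unadjusted p under 0.05). Their median difference was -0.19. These markers are bright, and all 406 genes with a mean log2 signal of at least 8 had a median difference of -0.16. Of 6 macrophage markers 5 had the higher mean (sum 20.3 to 22.1 young, 23.1 to 28.5 aged). All 4 fibroblast markers (358 to 408 young, 154 to 320 aged) and all 4 erythrocyte markers (147 to 226 young, 53.0 to 112 aged) had the lower. The 5 endothelial markers summed to 30.7 to 34.4 young and 20.8 to 29.4 aged, but 2 of them (Pecam1 and Tek) had the higher mean and 3 the lower. For both Pecam1 and Tek, young mouse 3 was the lowest of all mice. Its log2 signal was -2.33 for Pecam1, against -0.42 and -0.34 in the other young mice. For Tek it was -3.75, against -1.50 and -1.81. The 4 of 5 adipocyte markers that were tested summed to 94.6 to 106 young and 75.8 to 96.3 aged. The 5 Schwann cell markers summed to 23.0 to 42.7 young and 23.5 to 40.4 aged, 3 of 5 neutrophil markers to 0.940 to 1.1 young and 1.17 to 1.72 aged. Among the Schwann cell markers Prx passed the threshold (-1.29, limma adjusted p = 0.0428). Of the neutrophil markers only Retnlg had the higher mean in aged mice (its probe was well above background on 3 of the 6 arrays), and for Elane (-0.31) and Camp (-0.40) all aged mice lay below all young mice. Pax7 of the satellite cells measured 0.14 to 0.292 young and 0.188 to 0.256 aged. The part of these cells in the output genes' differences was not tested.

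The direction of the output genes was the same under each of 17 other ways of processing the arrays, of which 6 left out 1 mouse each. The series matrix values, the other filters, the mean-variance trend and the replicate block left each of these differences unchanged, so they add nothing on direction. The direction is part of what chose the genes and is given as a description. The difference of Dbp ranged from -2.52 to -1.51, that of Hlf from -1.81 to -1.03 and that of Bhlhe41 from -1.58 to -1.002. Bhlhe41 stayed past the adjusted threshold in 8 of the 17, among them the series matrix values, which are the same as those used. It did not when any mouse other than aged mouse 1 was left out, although its difference then lay between -1.50 and -1.32.

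**Figure D5:**
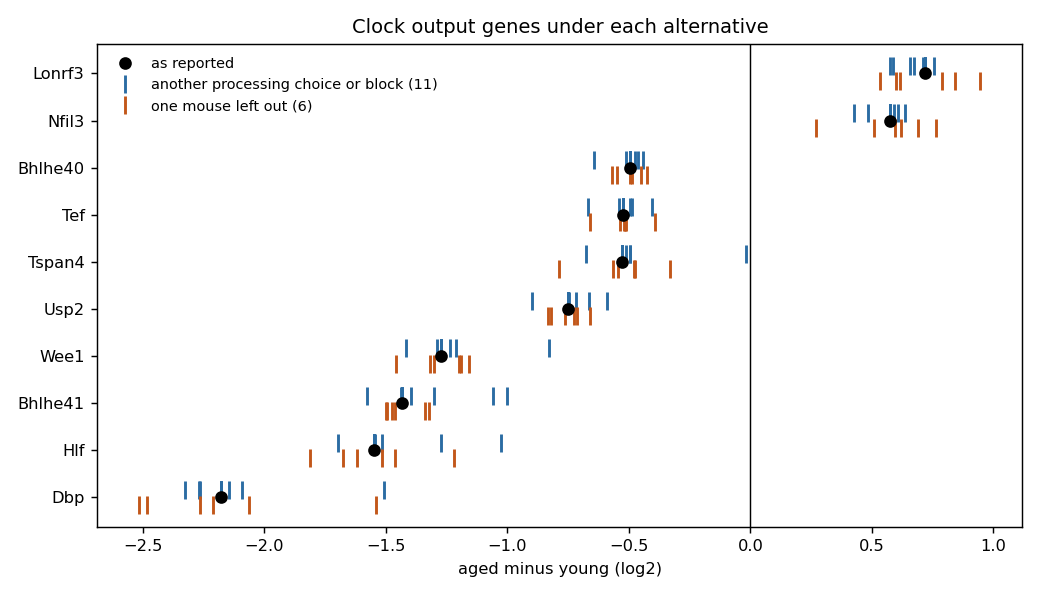
Aged minus young difference (log2) of each clock output gene as reported (black), under 11 other processing choices or blocks (blue) and with 1 mouse left out at a time (orange). All marks of a gene lie on one side of 0, and that of Tspan4 with the slide row as a block, -0.02, lies closest to it.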

How the data were processed

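The authors scanned 6 single-colour arrays, 1 per mouse, and deposited the Feature Extraction output of each. The values used are the deposited processed intensity of each spot on a linear scale, background-subtracted by that software and not scaled between arrays. The submitters' processing notes name version 9.5 and the file headers 11.0.1.1. The deposited series matrix held the same intensities. No normalization or test is stated in the sources used here.

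On each array 161 to 212 spots carried an outlier flag and were dropped. Spots of a probe were averaged as log2 intensity, and the array's own 75th percentile was then subtracted. Accessions were matched without version to RefSeq transcripts of GRCm38.p6, which named 28331 of 55681 probes. A probe had to be well above background on 3 or more arrays, and the brightest such probe stood for its gene. The 3 aged and 3 young mice entered a limma fit (limma 3.58.1, R 4.3.3), with p adjusted by Benjamini-Hochberg over 20900 genes and called under 0.05. Simulated arrays were used to check the fit. The number of arrays limits the precision, and the arrays shared 1 slide and 1 scan. Dates of dissection, extraction and labelling are not given in the sources used here.

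The genes described and all gene lists were chosen with earlier results of these data known. Named are the 10 output genes with each of their probes, the core clock genes tested, any gene of the other clock and glucocorticoid lists past the threshold, and the 3 genes most like Dbp and Bhlhe41. Other listed genes (Cys1, Cdkn1a, Sgk1, Mt2, Ddit4, Prx, Retnlg, Elane, Camp) were named after their values were seen. A further 2 core clock genes were left out of the list and are not reported here. Alternatives were normexp (offset 50, on median spot signals), quantile or median scaling, the percentile over detected probes, series matrix values, other filters, all probes averaged, a mean-variance trend, a block for the slide row or for the replicate number, and each mouse left out in turn.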

Additional observations from a re-analysis of the deposited data

How the results depend on the processing

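Several of the 17 alternatives left the differences unchanged, as given above, and under all of them the 10 output genes kept their direction. Their median difference was -0.79 with median scaling, which moved the median of all genes from -0.06 to -0.21, and -0.81 to -0.61 with 1 mouse left out. The number past the threshold fell from 1 to 0 with no filter on dim probes, with probes of a gene averaged, and with the slide row as a block and the replicate block, and was 0 to 1 with 1 mouse left out. Over all genes it was 53, against 8 with no filter, 35 when only probes detected on all 6 arrays were kept, 5 with the replicate block and 1 to 199 with 1 mouse left out. For the core clock it was 0 to 2 with 1 mouse left out, and for both other lists 0 throughout. Same-numbered mice did not deviate together (correlations -0.0625, -0.271 and 0.0277). These values cannot show whether such mice were handled together, and the labels do not say whether the numbers pair the mice.

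Some core clock genes near 0 changed sign. Arntl2 (0.0035) was -0.0399 with normexp, -0.0101 with quantile scaling, -0.14 with median scaling and -0.0369 with the row block. Csnk1d (0.22), whose probes differed in sign as given above, was -0.19 with those probes averaged. With the row block Nr1d1 was 0.20 and Rora 0.34. With 1 mouse left out, the ranges were -0.21 to 0.21 for Arntl2, -0.38 to 1.64e-05 for Rora, -0.13 to 0.60 for Cry2 and -0.39 to 0.84 for Rorb. The cause was not tested. Dim probes, such as those of Ciart and Per3 in aged mice, lie near background, so the size of their differences depends on the background correction. With normexp the differences of Ciart and Per3 were smaller, as given above.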
